A study of Mus musculus with 2 samples.

Results

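The Rab family of small GTPases was described in RNA from the nucleoplasm (the soluble fraction inside the nucleus) of mouse bone-marrow-derived macrophages. Members were taken by name, as genes called Rab plus a number and at most 1 further letter that have a protein-coding transcript. This gave 59 genes of 55536 annotated genes, of which 22028 were protein-coding. No measured value entered that choice. The data were 2 libraries of a single group: primary macrophages of the C57BL/6J strain, given 100 ng/ml Lipid A over 60 min, with ribosomal RNA depleted before sequencing. Toll-like receptor 4 recognises Lipid A, the part of bacterial lipopolysaccharide that sits in the bacterial membrane. The libraries are called replicate 1, started from 1 µg of RNA, and replicate 2, started from 500 ng. They were labelled as biological replicates under the same donor label, so their spread may be smaller than that between animals, and sex and age were not recorded. An unstimulated library and the cytoplasm were not analysed here, so no value below is a response to Lipid A.

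Rab proteins mark the membranes of the cell. Each switches between a GDP-bound form, held in the cytosol by GDP dissociation inhibitors, and a GTP-bound form that sits on a given organelle and recruits effectors. Guanine nucleotide exchange factors (GEFs) turn Rabs on and GTPase-activating proteins (GAPs) turn them off. In macrophages they are known above all for phagosome maturation, where Rab5 on the young phagosome gives way to Rab7, and for moving Toll-like receptor 4 to and from the cell surface. The libraries measure RNA in the nucleoplasm, where messenger RNA passes on its way out, and not protein.

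Depth in the gene table was 21256531 expected counts for replicate 1 and 15643649 for replicate 2, and rows that name no mouse gene held 0.662% and 0.232% of them. All 8 macrophage markers, among them Lyz2, Csf1r and Adgre1, reached a TPM (a share of the library per transcript length, scaled to a fixed sum) of 1 or more in both libraries, with a summed TPM of 2819 and 2563. None of the 6 neutrophil markers did, with a summed TPM of 2.09 and 1.72, and none of 5 B cell markers, with 1.01 and 1.5. All 5 T cell markers were at 0 counts in both gene tables, and mast cell, epithelial, neuronal and fibroblast markers summed to at most 0.25 there. In the second transcript table the T cell markers summed to 3.26 and 4.62, mostly on Cd3d at 2.80 and 4.07, and the neuronal ones to 1.62 and 3.48. One of 5 platelet markers (Pf4) and 1 of 5 melanocyte markers (Mitf) reached 1, with list sums of 29.2 and 39.5 and of 32.2 and 21.8. Mitf is also expressed by macrophages. The part of other cells in any Rab level was not tested.

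Sequences of the members show what ties them together. The nucleotide-binding loop is encoded by a glycine codon, 4 further codons, then glycine, lysine and serine or threonine codons. The following lines give it for the 3 highest members, for Rab5b and Rab20, and for Rab25, which had no count, 5′ to 3′, with these fixed codons in capitals.
Rab8b: GGCgactccggcgttGGCAAGACC
Rab7: GGGgactctggtgttGGAAAGACC
Rab14: GGGgatatgggagtaGGAAAATCT
Rab5b: GGAgagtctgcagtgGGGAAGTCT
Rab20: GGGgacatgaacgtgGGTAAAACG
Rab25: GGCgagtcaggcgtgGGCAAGACC
A complete coding sequence was annotated for all 59 members, and 57 held this pattern. The exceptions were Rab40b and Rab40c, the Rabs with a domain for ubiquitin ligase assembly. The Rab25 line shows that the pattern is also present in a gene that was not detected.

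Rab proteins are anchored by lipids attached to cysteines at the carboxyl end. The last 6 codons and the stop codon are shown for 5 members, to contrast double and single cysteines, with cysteine codons in capitals.
Rab7: gcagaaagcTGCagtTGTtga
Rab14: agagaaggcTGTggcTGCtag
Rab5b: agccagTGTTGTagcaactga
Rab8b: ttccgcTGTtctctgctttga
Rab8a: ttccggTGCagtctcctgtga
Of the 59 members, 50 had 2 cysteine codons among the last 5 codons and 9 had 1. The 9 were Rab8a, Rab8b, Rab13, Rab18, Rab23, Rab28, Rab38, Rab40b and Rab40c. Rab8b, the member with the highest mean TPM in the gene table, is thus in the smaller class. Coding length had a median of 215 codons and ran from 194 in Rab22a to 973 in Rab44, whose coding sequence places the loop at codon 792.

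Family members resemble each other, which matters for assigning reads. Over 1711 pairs of coding sequences the highest identity was 78.5% for Rab6a and Rab6b, followed by 77.5% for Rab8b and Rab8a and 76.1% for Rab1a and Rab1b. The longest run of bases shared exactly by any pair was 38 bases, between Rab1a and Rab1b.
Rab1a and Rab1b: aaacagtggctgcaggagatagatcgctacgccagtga
No pair shared a run of 50 bases or more. The quantifier's own SD of the count was 0 in both libraries for 45 members and above 2% of the count in either library for 2, Rab43 and Rab2b. For Rab43 it was 27.3 on 951 counts in replicate 1 and 32.6 on 680 in replicate 2. Rab43 shares 4164 exon bases with Gm45140 on the same strand, and Rab2b shares 195 with Tox4 and 2469 with Gm43766 on the other strand. Among the other members that SD was at most 1.91% of the count.

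Many Rabs were present in the nucleoplasm, at levels that spanned the whole range from no count to the upper few percent of genes. In both libraries, 33 of 59 members (55.9%) reached a TPM of 1, where 39.2% of protein-coding genes reached it. Of these, 18 reached 10. At a TPM of 0.5 the count was 39 members, beside 44.4% of protein-coding genes, and with TPM rescaled over protein-coding genes it was 44, beside 49.1%. In the second transcript table it was 34, beside 39.3%. The median of log2(TPM + 1) over all members was 1.82 ± 0.26 (SD, n = 2), beside 0.32 ± 0.05 over protein-coding genes. Among genes that reached a TPM of 1 the medians were 3.87 ± 0.23 for the Rabs and 3.05 ± 0.24 for all protein-coding genes. Of other small GTPase families, the median was 2.39 ± 0.02 for 24 Ras genes and 3.12 ± 0.08 for 28 Arf genes. The Rab median was below both in each library. A TPM of 1 was reached by 15 of the Ras genes and 24 of the Arf genes.

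A few members held most of the family's RNA. Summed Rab TPM was 735.9 in replicate 1 and 577.4 in replicate 2, which was 0.298% ± 0.013 of the TPM of protein-coding nuclear genes. That share was 0.289% in replicate 1 and 0.307% in replicate 2, so it was higher in the library where the summed TPM was lower. The 3 highest members held 31.3% ± 1.9 of the summed Rab TPM and the 10 highest 64.4% ± 1.7. The order of members was nearly the same in both libraries, with a Spearman rank correlation of 0.989 over the 59 genes, given as a description, since the genes share each library's depth. The rank correlation of mean TPM with the span of the gene was 0.084 over the same genes.

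**Figure D1:**
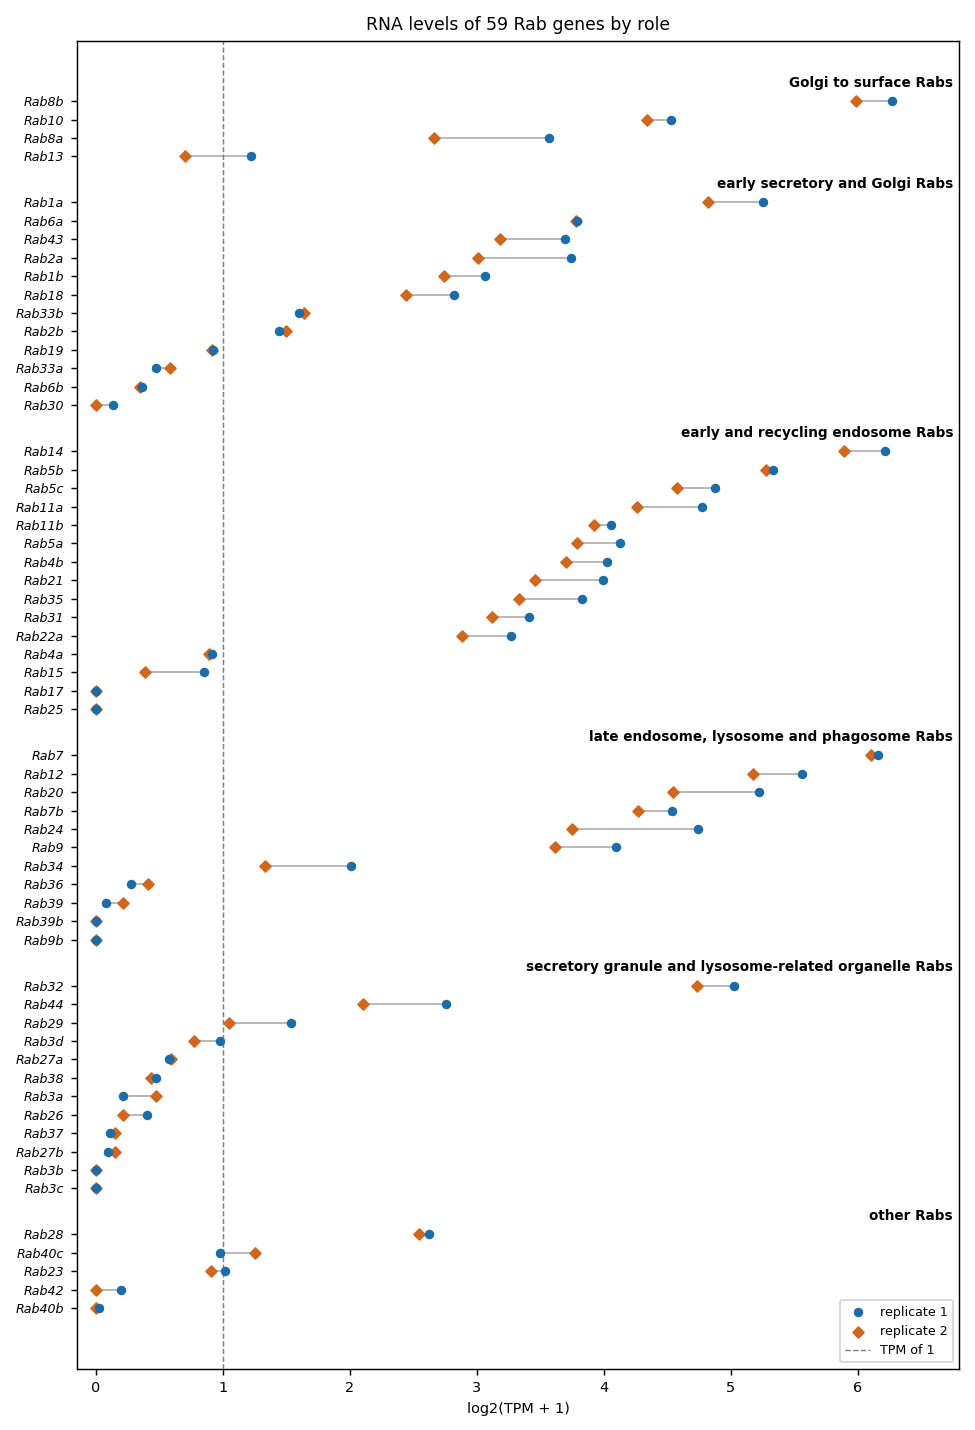
Level of each Rab gene as log2(TPM + 1), by role group, with a circle for replicate 1, a diamond for replicate 2 and a line joining them. The dashed line marks a TPM of 1, which 33 of 59 members reached in both libraries, and Rab8b, Rab7 and Rab14 lie farthest to the right.

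Rabs of transport from the Golgi to the cell surface comprised 4 members with a median of 3.78 ± 0.39, and they held 15.1% ± 0.1 of the family's TPM. Rab8b, which carries vesicles to the plasma membrane, had TPM values of 76.2 and 62.5 in replicates 1 and 2 (69.3 ± 9.8). This put it at rank 595 and 518 among protein-coding genes. All of its TPM lay on its single annotated transcript, Rab8b-201, on chromosome 9 from 66843664 to 66919687 on the minus strand (mm10). Its relative Rab8a had a TPM of 10.9 and 5.35, which was lower by 2.81 and 3.55 on the log2 scale. Rab10, which delivers Toll-like receptor 4 to the macrophage surface, had 22.1 and 19.2. Rab13, known from tight junctions, was the lowest of this group at 1.34 and 0.63, on 30 and 13 counts.

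Rabs of the early secretory pathway and the Golgi had a lower median, 2.13 ± 0.12 over 12 members, of which 8 reached a TPM of 1 in both libraries. They held 12.5% ± 0.3 of the family's TPM. Rab1a, which acts between endoplasmic reticulum and Golgi, led the group with a TPM of 37.1 and 27.3. Its relative Rab1b had 7.37 and 5.68, a log2 difference of 2.30 ± 0.05 (SD, n = 2). Rab6a, the Rab of retrograde Golgi traffic, had TPM values of 12.8 and 12.7, and Rab6b had 0.29 and 0.27. That pair was 5.51 ± 0.07 apart on the log2 scale. By normalised counts, described further on, Rab6a was higher in replicate 2, with a log2 ratio of 0.45. Rab43, Rab2a and Rab18 lay between a TPM of 4.44 and 12.4 in the libraries, and Rab33b and Rab2b between 1.72 and 2.12. Rab30, a Golgi Rab, was the lowest, with 7 counts in replicate 1 and 0 in replicate 2.

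Rabs of early and recycling endosomes were the largest group with 15 members, and they held the largest share of the family's TPM, 36.1% ± 0.5. The group's median was 3.72 ± 0.38, and 11 of 15 reached a TPM of 1. Rab14, which acts between endosomes and the trans-Golgi network, was its highest member at 73.1 and 58.2 (65.7 ± 10.5). The early endosome and young phagosome Rabs were all present. Rab5b had a TPM of 39.3 and 37.7, Rab5c of 28.4 and 22.9, and Rab5a of 16.5 and 12.8. The order of these 3 was the same in both libraries, and Rab5b exceeded Rab5c by 0.60 ± 0.18 and Rab5a by 1.41 ± 0.21 on the log2 scale. Of the recycling endosome Rabs, Rab11a had 26.3 and 18.2 and Rab11b 15.7 and 14.1. Of the fast recycling Rabs, Rab4b had 15.3 and 12.1, and Rab4a had 0.89 and 0.86 on 15 and 20 counts. Rab21, Rab35, Rab31 and Rab22a lay between 6.38 and 14.9. Rab17 and Rab25, known from epithelial cells, had 0 counts in both libraries, and epithelial markers summed to a TPM of 0.01 and 0.05.

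Rabs of late endosomes, lysosomes and phagosomes had the highest median, 3.85 ± 0.34 over 11 members, which lay within 1 SD of the Golgi-to-surface and early endosome groups. They held 29.6% ± 0.5 of the family's TPM. Rab7, the Rab of late endosomes and maturing phagosomes, had 70.7 and 67.7 (69.2 ± 2.1), and was the highest member of the family in replicate 2 but below Rab8b and Rab14 in replicate 1. The means of Rab8b, Rab7 and Rab14 differed by less than the larger SD of each pair, while Rab8b was above Rab14 in both libraries of the gene table. That order was reversed in the second transcript table, described further on, with Rab8b at 28.5 and 30.1 and Rab14 at 29.1 and 33.8. Rab7 was above both there, at 37.8 and 48.3. Rab12, which sends receptors to lysosomes, had 46.2 and 35.2. Rab20, which takes part in phagosome maturation, had 36.4 and 22.4. Rab7b, which guides Toll-like receptor 4 to lysosomes, had 22.2 and 18.3, below Rab7 by 1.78 ± 0.16 on the log2 scale. Rab24, an autophagy Rab, had 25.7 and 12.5, and Rab9, which returns receptors to the trans-Golgi network, 16.1 and 11.2. Rab34, Rab36 and Rab39 were at most 3.02. Rab39b and Rab9b had 0 counts in both libraries.

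Rabs of secretory granules and lysosome-related organelles had a median of 0.45 ± 0.01 over 12 members, and 3 of 12 reached a TPM of 1. It was the lowest of the groups in the gene table, while in the second transcript table, described further on, it was 0.76, above the 0.63 of the 5 members outside the named groups. Rab32, a Rab of lysosome-related organelles with a known part in killing bacteria in macrophages, was far above the rest of its group at 31.6 and 25.6. It alone accounted for most of the 5.63% ± 0.06 that the group held. Its relative Rab38, known from melanosomes, had 0.39 and 0.35, a log2 difference of 6.27 ± 0.11. Rab44, a long Rab, had 5.76 and 3.29, and Rab29 1.91 and 1.07. The Rabs of regulated secretion were low. Rab27a, of granules and exosomes, had 0.49 and 0.51 on 22 and 33 counts, and Rab27b 0.07 and 0.11 on 4 and 8 counts. Rab3d had 0.97 and 0.71 and Rab3a 0.16 and 0.39. Rab3b and Rab3c, known from neurons and endocrine cells, had 0 counts in both libraries.

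The 5 remaining members had a median of 0.94 ± 0.05. Rab28, a Rab of cilia, had a TPM of 5.16 and 4.84. Rab40c had 0.97 and 1.38, and Rab23, which acts in Hedgehog signalling, 1.02 and 0.88. Rab42 had 2 and 0 counts and Rab40b 1 and 0. In all, 6 members had 0 counts in both libraries (Rab3b, Rab3c, Rab9b, Rab17, Rab25 and Rab39b). A count of 0 allows up to 3 counts, which is 0.142 CPM (counts scaled by library size) in replicate 1 and 0.192 in replicate 2. These limits cover counting error only, and only in the gene table.

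By each member's SD over the libraries, adjacent ranks were mostly not resolved. The 10 highest members by mean TPM were Rab8b, Rab7, Rab14, Rab12, Rab5b, Rab1a, Rab20, Rab32, Rab5c and Rab11a. Of the 9 neighbouring pairs in that order, 5 kept it in both libraries and 1 was apart by more than the larger SD of the pair. The single step beyond that SD was that from Rab14 at 65.7 ± 10.5 down to Rab12 at 40.7 ± 7.8. It was not kept in the second transcript table, where Rab14 had 29.1 and 33.8 and Rab12 had 31.7 and 31.4. Each SD also holds any shift shared by members between the libraries, where summed Rab TPM was 735.9 and 577.4. As a share of protein-coding nuclear TPM, the sum went the other way, at 0.289% and 0.307%. The spread of paired differences was not computed for these neighbours, so the SD does not measure how stable their order is. The libraries shared 9 of their own 10 highest members.

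Of the listed machinery that controls Rabs, larger shares were present than of the Rabs themselves. The lists were chosen with earlier results of these data known, and the Rabs were taken by name alone. The shares are thus of unlike sets. All 8 genes of prenylation, escort and GDP dissociation inhibition reached a TPM of 1 in both libraries, with a median log2(TPM + 1) of 3.10 ± 0.25. Gdi2, an inhibitor that holds Rabs in the cytosol, had a TPM of 39.7 and 36.3. Rabac1, a Rab acceptor, had 10.3 and 8.38. Of the GEFs, 28 of 35 reached a TPM of 1, with a median of 3.04 ± 0.24. The highest were Dennd5a at 126.8 and 113.0, Dennd1a at 132.8 and 82.2 and Rabgef1, the exchange factor for Rab5, at 93.2 and 65.2. Of the GAPs, 26 of 34 did, with a median of 3.01 ± 0.31. Tbc1d2b led the GAP list at 64.3 and 46.1, followed by Tbc1d1 at 52.3 and 31.9 and Tbc1d4 at 45.8 and 32.3. Rab3gap1 and Rab3gap2, named as GAPs of Rab3, were counted in the GEF list instead. Rab3gap2 had 85.0 and 57.9, above Tbc1d2b in both libraries. Of the effectors, 27 of 40 did, with a median of 2.39 ± 0.19. Wdr91, which acts with Rab7 on late endosomes, had 143.1 and 64.5. Appl2, an effector of Rab5, had 124.2 and 79.8, and Eea1, the tether of early endosomes that binds Rab5, 112.4 and 71.5. Each of these 3 effectors was above every Rab gene in replicate 1, while in replicate 2 Wdr91 was below Rab7, and 39.2% of protein-coding genes reached a TPM of 1 by the same rule.

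The replicates differed little for the family. Log2 ratios of replicate 2 to replicate 1 were taken from TMM-normalised counts for 10083 genes with a mean count of at least 50. These held 33 members, of which 31 also reached a TPM of 1 in both libraries; Rab40c and Rab3d came in by count, and Rab34 and Rab29 fell out. No member was over 2-fold apart, where 1.18% of all genes were. With a minimum mean count of 10 it was 2 of 45 members, Rab15 and Rab27a, beside 4.41% of genes, and with no minimum 8 of 59, beside 10.3%. The median ratio of the members was 0.09 and that of all genes -0.01, and the median size of the ratio was 0.12 for members and 0.18 for all genes. The 95% exact binomial interval from counting error left out 0 for 14 members, and for 42.9% of all genes. Of these 14, 10 were higher in replicate 2 and 4 in replicate 1. Depth and starting amount differ between the replicates in the same direction, and cannot be told apart from biological variation.

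The highest ratios were those of Rab40c at 0.83 (interval 0.30 to 1.37), on 54 and 69 counts, Rab6a at 0.45 (0.28 to 0.62), and Rab5b and Rab11b at 0.35 each. The lowest were Rab24 at -0.48 (-0.69 to -0.29), Rab2a at -0.40 (-0.61 to -0.20) and Rab20 at -0.30 (-0.45 to -0.16). Neighbouring genes overlap some of these. Rab24 shares 1258 exon bases with Prelid1 on the other strand, which had 507 and 474 counts and a normalised ratio of 0.38, opposite in sign to Rab24. Rab20 shares 356 with the divergent noncoding gene E230013L22Rik, which had 826 and 401 counts and a ratio of -0.56, of the same sign as Rab20. Rab6a shares 708 with Mrpl48, whose ratio was 0.36, of the same sign as Rab6a. In all, 20 of the 59 members share exon bases with another gene, 6 on the same strand and 15 on the opposite one. The share of all genes with such an overlap was not counted. Some of these neighbours had 0 counts in both libraries, such as Gm47308 for Rab11a and 8030443G20Rik for Rab3b. The strand setting of the counting is not given in the sources used here. Reads of a member and a gene that shares its exon bases may thus not be separated, and those values are uncertain.

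**Figure D2:**
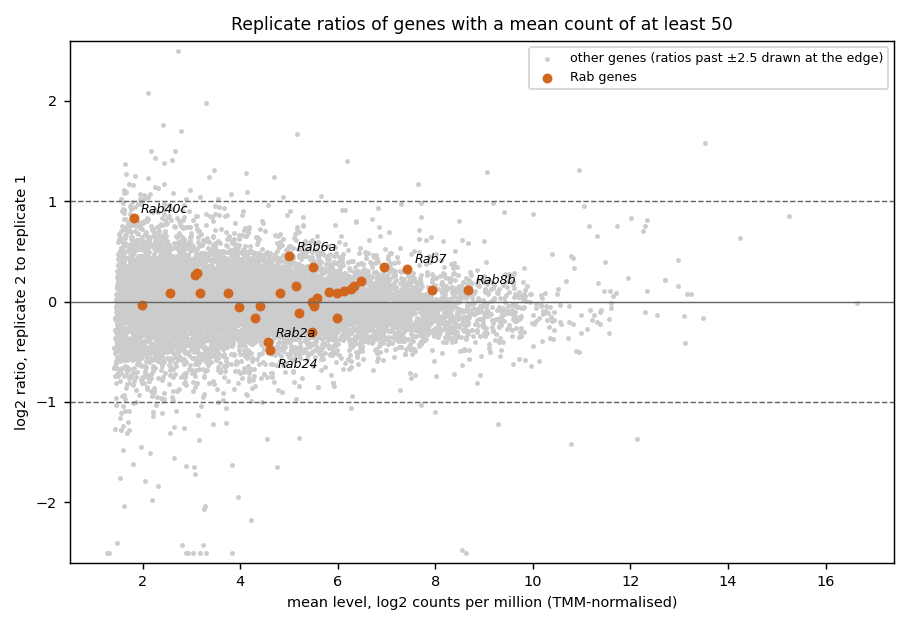
Log2 ratio of replicate 2 to replicate 1 against mean level in log2 CPM, for 10083 genes (grey) with 33 Rab genes in orange, and dashed lines at 2-fold. All Rab points lie between the dashed lines, with Rab40c at 0.83 and Rab24 at -0.48 the farthest from 0.

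Nuclear RNA holds unfinished and retained transcripts, so the type of transcript to which the TPM was assigned was read for the 33 members with a TPM of at least 1. Over 20% of the TPM lay on transcripts not annotated as protein-coding in both libraries for 11 of 33, where this was so for 51.9% of protein-coding genes with a TPM of at least 1. The median share was 6.93% ± 1.06 for the members and 25.9% ± 0.8 for those genes. In the second transcript table, described further on, these medians were 25.45% ± 2.8 and 38.5% ± 1.88, so the gap depends on the quantification. Annotation differed too: 69.7% of the members had such transcripts annotated at all, against 84.1% of the genes. Among those that had them the medians were 23.7% ± 4.4 for 23 members and 32.7% ± 0.4 for 7263 genes. Of the whole family's TPM, 19.5% ± 0.9 lay on such types and 15.2% ± 0.2 on retained introns.

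The shares were spread unevenly. Rab44 had the highest, 73.4% in replicate 1 and 63.1% in replicate 2, led by the short processed transcript Rab44-202. Rab8a had 66.2% and 50.5%, all on Rab8a-202, a retained-intron transcript of 542 nucleotides. Rab4b had 64.9% and 53.4%. In Rab14 the share was the same in both libraries, 61.4% and 61.3%, but it was divided among many retained-intron transcripts. The largest part of it was on Rab14-210, an unspliced stretch of 5003 nucleotides with 20.1% and 23.0%, while the coding Rab14-201 held 33.0% and 34.2%. Rab12 had 38.2% and 47.5%, Rab5a 42.2% and 41.0%, Rab6a 40.4% and 35.0% and Rab5b 35.7% and 35.0%. Rab8b, Rab7, Rab20, Rab5c, Rab10 and 5 further members had only protein-coding transcripts annotated and so a share of 0 by construction. The leading transcript was protein-coding in both libraries for 30 of 33 members and was the same transcript in both for 29. It was the same in both libraries and also in the second transcript table for 20 of 33. In that table Rab12, Rab6a, Rab18 and Rab34, led by coding transcripts here, were led by other types in both libraries. The share over all protein-coding genes was not computed. Rab44-201 and Rab44-207 are given the same length and the same values, so the split between coding and other types in Rab44 is uncertain.

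**Figure D3:**
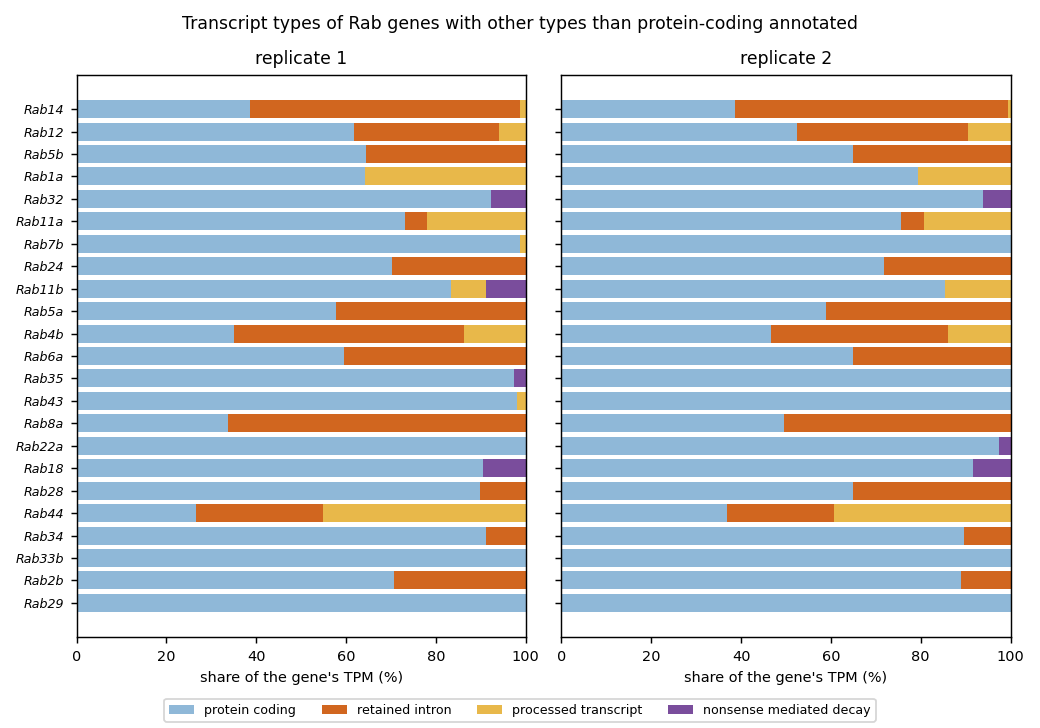
Share of each gene's TPM by annotated transcript type in both replicates, for the 23 Rab genes with a TPM of at least 1 that have types other than protein-coding annotated, ordered by level. Rab14, Rab4b, Rab8a and Rab44 show the widest bars of other types, over 50% in both replicates.

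A second transcript table, made directly from the reads, was summed per gene and set beside the gene table. Members lay below the gene table in it by a median log2 difference of -0.89 ± 0.31, and protein-coding genes with a TPM of at least 1 by -0.80 ± 0.39. The rank correlation of the members' means between the tables was 0.904 over 59 genes, and 8 of the 10 highest members were shared. Among members with a TPM of at least 1, Rab34 went the other way by the widest margin on the log2 scale, with 13.0 and 14.7 in the second table against 3.02 and 1.52 in the gene table. Of that, 89.3% and 91.3% lay on Rab34-207, a retained-intron transcript of 352 nucleotides that was at 0 in the first transcript table. Rab18 had 6.77 and 10.01 against 6.05 and 4.44, and Rab9 17.5 and 20.7 against 16.1 and 11.2.

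The tables also differed on which Rabs were detected. Rab9b, Rab3c and Rab3b, at 0 counts in the gene table, had a TPM of 1.57 and 1.90, of 1.21 and 1.21, and of 0.80 and 0.99 in the second table. Their estimated counts there were 456 and 480, 506 and 491, and 22 and 16, above the limit of 3 counts. Most of the Rab3b value (96.9% and 99.0%) lay on Rab3b-204, a processed transcript of 432 nucleotides. Rab27b was above Rab27a in the second table and below it in the gene table, with log2 ratios of Rab27a to Rab27b of -0.73 and 2.51. The other 3 members without a count in the gene table, Rab17, Rab25 and Rab39b, were at 0 in both tables. There, 17 members had over 20% of TPM on types other than protein-coding, where 65.1% of protein-coding genes did.

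**Figure D4:**
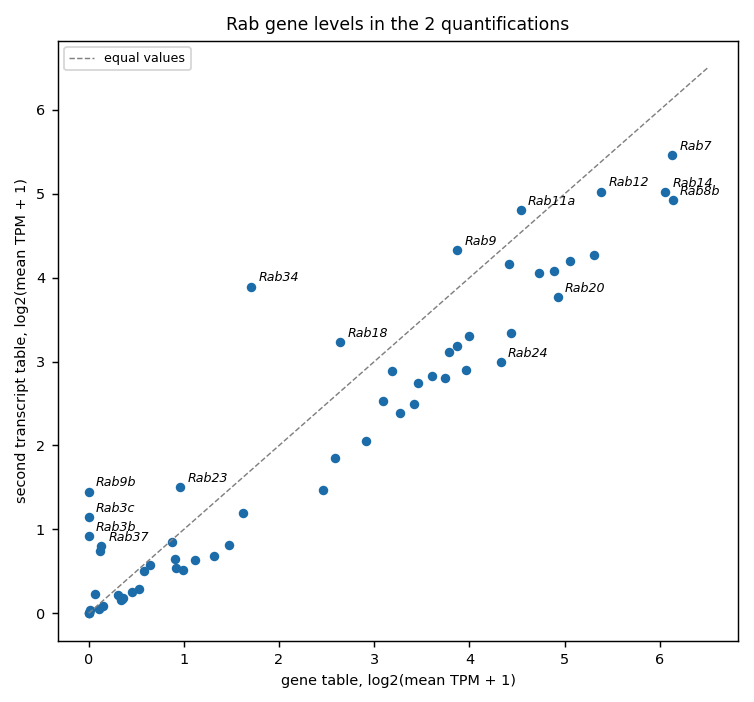
Mean level of the 59 Rab genes in the gene table against the second transcript table, both as log2(mean TPM + 1), with equal values on the dashed line. Of the members, 12 lie above the line, among them Rab34, Rab18, Rab9, Rab11a, Rab23, Rab9b, Rab3c and Rab3b.

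Promoters of the members were read from the RefSeq table of the GRCm38.p6 build, as windows of 300 bases, 250 before and 50 after each start. An entry was matched for 48 members; Rab2a, Rab4a, Rab7b, Rab18, Rab26, Rab27b, Rab30, Rab36, Rab37, Rab38 and Rab44 had none. For 46 the window lay within 300 bases of an annotated transcript start and was used. The 250 bases before the start are shown 5′ to 3′ for Rab8b and Rab12, high members with many CG dinucleotides, for Rab20, a high member with fewer, and for Rab25, which had no count. Every CG is in capitals.
Rab8b, chr9:66919706-66919955, minus strand: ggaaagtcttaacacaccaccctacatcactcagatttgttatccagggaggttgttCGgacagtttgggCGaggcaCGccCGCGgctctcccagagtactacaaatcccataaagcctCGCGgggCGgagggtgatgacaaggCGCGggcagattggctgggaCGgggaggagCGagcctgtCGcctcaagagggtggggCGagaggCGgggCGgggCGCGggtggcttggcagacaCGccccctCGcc
Rab12, chr17:66519671-66519920, minus strand: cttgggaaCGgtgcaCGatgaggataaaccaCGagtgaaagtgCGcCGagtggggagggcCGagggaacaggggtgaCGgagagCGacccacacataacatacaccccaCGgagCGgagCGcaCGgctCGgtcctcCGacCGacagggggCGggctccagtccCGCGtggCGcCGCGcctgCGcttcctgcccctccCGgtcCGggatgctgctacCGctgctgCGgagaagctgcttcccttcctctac
Rab20, chr8:11478641-11478890, minus strand: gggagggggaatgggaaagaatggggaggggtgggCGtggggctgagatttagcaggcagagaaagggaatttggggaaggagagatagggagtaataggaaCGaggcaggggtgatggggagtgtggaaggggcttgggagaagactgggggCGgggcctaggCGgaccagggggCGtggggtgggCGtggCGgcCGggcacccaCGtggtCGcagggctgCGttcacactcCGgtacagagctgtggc
Rab25, chr3:88548280-88548529, minus strand: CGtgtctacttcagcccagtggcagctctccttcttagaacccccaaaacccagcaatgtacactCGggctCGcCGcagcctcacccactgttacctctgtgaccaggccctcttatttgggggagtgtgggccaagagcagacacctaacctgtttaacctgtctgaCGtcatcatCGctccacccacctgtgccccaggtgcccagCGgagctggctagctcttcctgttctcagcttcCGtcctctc
These stretches hold 20, 26, 12 and 8 CG dinucleotides.

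In the full windows the median number of CG dinucleotides was 19.5 over the 46 members and 7 over all 32851 promoters of this length. Each member gave 1 window, that nearest the start of its protein-coding transcript with the highest mean TPM. The comparison, here and for the motifs below, took every window of 27025 genes, so the sets are unlike. The median was 24 for the 29 members that reached a TPM of 1 in both libraries (range 3 to 43). It was 18 for the 17 below that (range 6 to 42), and 10.5 for the 6 members under 3 counts in both libraries that had a window. The ranges overlap almost wholly. Rab43 was present with 3 CG dinucleotides, and Rab6b, at a TPM under 0.3, had 42. The Rab43 window was that of Rab43-201, which led in replicate 2, while Rab43-203 led in replicate 1. Across the 46 the rank correlation with mean TPM was 0.24, which is weak and is given as a description. The named motif of the transcription factor NF-κB was found in the window of 1 member (2.17%) and of 4.51% of all promoters. The letters CACGTG were found in 5 members (10.9%) and in 7.15% of all, and TATAAA in 3 members (6.52%) and 13.6% of all. Both strands were searched, and a match is a description of the letters only.

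**Figure D5:**
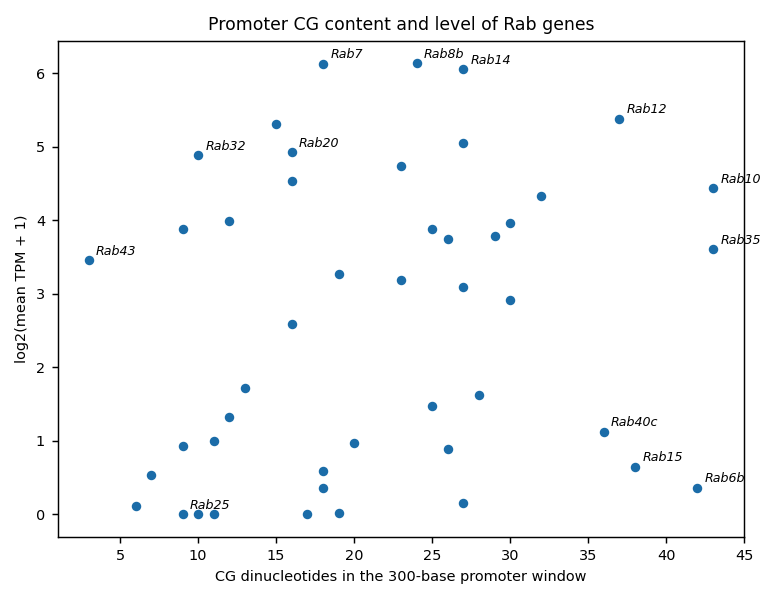
Number of CG dinucleotides in the 300-base promoter window of 46 Rab genes against log2(mean TPM + 1) over both libraries. Points above and below a TPM of 1 overlap from 6 to 42 CG dinucleotides.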

How the data were processed

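Expected counts in the gene table, which need not be whole and are not normalised, were deposited by the authors for each of 2 libraries of 1 group, with TPM values scaled to a fixed sum. The gene table also holds the quantifier's SD of the count, a value of another kind deposited by the authors, and the SDs given above are from it. A first transcript table of the same layout gave the TPM of each transcript. The second transcript table, with estimated counts and TPM deposited by the authors, was summed per gene here. All were made on mm10 with GENCODE M21, per the file headers. The sources used here name no aligner, quantifier or strand setting, so these are not given.

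The lists (6 role groups, 4 regulator lists, the Ras and Arf families and the cell type markers) were chosen with earlier results of these data known. The 59 members themselves were taken by name alone. The listed symbol Rab41 matched no gene. Every member could be named, in detail the 10 highest, the highest and lowest of each role group, those under 3 counts, the 3 highest and 3 lowest replicate ratios, the 5 highest shares on other transcript types, the 5 largest differences between tables, members with counts that are not whole, and the 3 highest regulators per list, where some items are not reported here. Other members were given values after these were seen.

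Levels are log2(TPM + 1), with mean ± SD over the libraries. With 1 group there is no test and no p-value. Counts were rounded and normalised by TMM in edgeR 4.0.16 (R 4.3.3), 0.5 was added, and genes with a mean count of at least 50 were kept; DESeq2 1.42.0 size factors were an alternative. Library sizes leave out the 26345 rows that name no mouse gene. Intervals are exact binomial at 95% and, like the floor of 3 counts, cover counting error only, since the reads carry no molecular identifiers and several may come from 1 molecule. Coding sequences are from GENCODE and were aligned with Biopython 1.88. Sequences of members on the chromosome of Rab18 and Rab27b are not reported here. Coordinates are 1-based.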

Additional observations from a re-analysis of the deposited data

How the results depend on the processing

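The family median of log2(TPM + 1) was 1.82, and it was 1.40 with a pseudocount of 0.1, 1.51 in the second transcript table, 3.87 over members with a TPM of at least 1 and 3.65 with TPM rescaled over protein-coding genes, which also took the median of all protein-coding genes from 0.32 to 1.10. With a pseudocount of 0.1, the medians were 1.76 for early secretory, -1.12 for granule, 0.034 for the remaining Rabs and 2.12 for effectors. In the second table they were 3.12 for Golgi-to-surface, 1.62 for early secretory, 2.83 for early endosome, 0.76 for granule and 0.63 for the remaining Rabs, 2.25 for prenylation and escort, 2.68 for GEFs, 2.54 for GAPs and 1.81 for effectors. Over genes with a TPM of at least 1 they were 4.44 for Golgi-to-surface, 3.13 for early secretory, 4.51 for late endosome, 2.43 for granule and 2.58 for the remaining Rabs, 4.03 for GEFs, 3.39 for GAPs and 3.27 for effectors. The 10 highest members held 61.3% in the second table and 68.5% of expected counts. Members over 2-fold apart numbered 8 of 59 with no minimum count and 2 of 45 with a minimum of 10. Members with over 20% of TPM on other transcript types numbered 17 in the second table. The cause was not tested for any of these beyond the construction of each setting. The log2 ratio of Rab27a to Rab27b reversed to -0.73 in the second table, an alternative added after the data were seen, and 8 of the other 12 ratios between relatives moved by more than 1 SD. Median CG was 24 and 17 at and below a TPM of 1 without the distance limit on promoters, also added after the data were seen. Levels of 51 of 59 members moved by more than 1 SD in the second table, and the 33 replicate ratios each moved by less than the SD of the ratios over members with DESeq2 size factors, as did 31 of them in the second table. The 33 members at a TPM of 1 became 39 at a TPM of 0.5, 44 with TPM rescaled, 34 in the second table and 34 to 35 when either library was left out, which gave a family median of 1.64 to 2.01. Members under 10 counts rest on too few reads to be ranked. No paired analysis between groups was possible because there was 1 group.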

Other observations

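Genes named after Rabs that are not members were read too. Rab10os, an antisense gene that shares 143 exon bases with Rab10, had TPM values of 13.5 and 8.55 in replicates 1 and 2, on 733 and 484 counts. Rab26os, a short antisense gene within Rab26, had 1.28 and 2.91 on 5 and 10 counts, beside 0.32 and 0.16 for Rab26. The processed pseudogenes Rab7-ps1 and Rab11b-ps2 had at most 3.59 counts in either library, beside 3260 and 2934 for Rab7. Rab5a-ps and Rab9b-ps1 had 0 counts in both. Unspliced-type genes of unknown coding status lie within the spans of 2 of the higher members without shared exon bases: Gm44187 in Rab7 had a TPM of 33.4 and 20.5, and Gm20100 in Rab20 had 18.6 and 12.1, both on the strand of the host gene.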
